A study of Caenorhabditis elegans with 10 samples.

Results

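The fatty acid desaturases of *C. elegans* are encoded by *fat-1* to *fat-7*, and these 7 genes, with all 15 of their transcripts, were picked by gene name from 19985 genes and 31865 transcripts. They were followed by sequencing of total RNA from whole wild-type (N2) animals cooled in steps. All animals were raised from synchronized larvae at 20 °C on OP50 bacteria until day 1 of adulthood and then collected directly (20 °C), after a short step at 10 °C, or after that step and a stay at 4 °C (day 1, day 3, and day 5). The groups therefore share genotype, diet, and rearing, and those from 4 °C are also older in calendar time than those from 20 °C. The protocol gives 2 hr at 10 °C where the treatment labels give 3 hr. The animals titled as 5 days at 4 °C carry a treatment label of 3 days and are called day 5 here. There were 2 biological replicates for each of the 5 conditions, but the deposited table has 1 column of FPKM values per condition. FPKM is a read count scaled by transcript length and by the reads counted on all transcripts of the column. It can be compared between genes because it is scaled by length. No spread between replicates can be seen in these values, so no difference below was tested, no p-value is given, and each interval covers counting error only.

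A desaturase puts a double bond into the acyl chain of a fatty acid, which makes membranes built from that fatty acid more fluid, and animals that live at low temperature commonly hold more unsaturated lipid. The delta-9 enzymes place the first double bond in a saturated chain. FAT-5 acts mainly on palmitic acid, while FAT-6 and FAT-7, which are close paralogs, act mainly on stearic acid and give oleic acid. The polyunsaturated branch continues from there: FAT-2 turns oleic acid into linoleic acid, FAT-3 and FAT-4 add further double bonds on the way to arachidonic and eicosapentaenoic acid, and FAT-1 converts omega-6 into omega-3 fatty acids. The genes are expressed largely in the intestine, and *fat-7* is known to be raised in worms cultured at lower, but still permissive, temperature. The study used this cooling scheme to ask how gene expression is reshaped in cold-dormant animals, and desaturases are among the genes it discusses.

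From 10 °C to day 1 at 4 °C, 2 of the 3 delta-9 genes fell and none of the 4 genes of the polyunsaturated branch did. At day 1 at 4 °C, *fat-5* was 18.4-fold lower than at 10 °C and *fat-6* was 2.10-fold lower, while *fat-7* was 1.00% above its 10 °C value. All 4 genes of the polyunsaturated branch were slightly higher, by 14.1% to 24.1%. The low levels of *fat-5* and *fat-6* were still present on day 3 and day 5. Of the 7 genes, 2 (28.6%) passed a 2-fold threshold at this step, both downward, and 1 did with changes centred on the median of all genes, where *fat-6* was at -0.98 on the log2 scale. Among the 10394 genes that reached 1 FPKM in any condition, 10.8% passed it in either direction, 5.46% upward and 5.35% downward. Calls were made on the log2 ratio of FPKM + 0.1, which understates the change of low values, and the most read transcript stood for its gene. All 7 genes passed the filter.

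**Figure D1:**
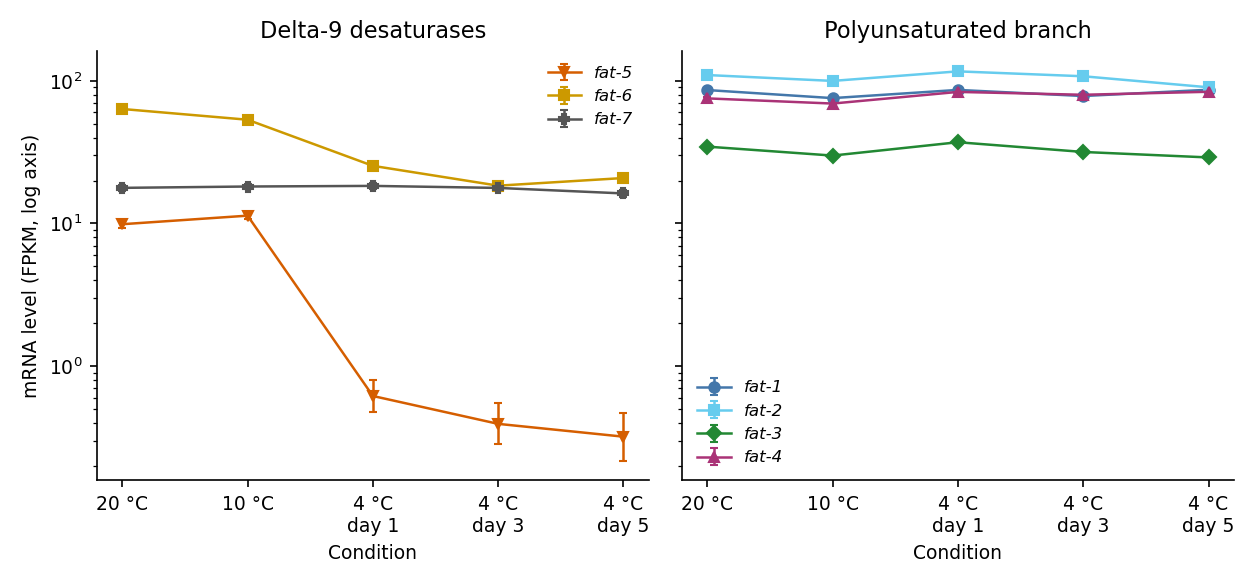
mRNA level of each desaturase gene (FPKM, log axis) at 20 °C, 10 °C, and day 1, 3, and 5 at 4 °C; points are the single deposited value per condition and bars are 95% Wilson limits, which cover counting error only. On the left, *fat-5* lies at 0.617 FPKM or less at every day at 4 °C, *fat-6* between 18.4 and 25.3 FPKM, and *fat-7* between 16.2 and 18.3 FPKM; on the right, each of the 4 polyunsaturated branch genes stays within a 1.29-fold range over the 5 conditions.

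The columns held between 70741449 (day 5) and 85103831 (day 1) reads summed over transcripts, so a read shared by nested isoforms can enter more than once. At this depth 3 reads, taken as the floor, on a transcript of 1 kb correspond to between 0.0353 and 0.0424 FPKM. The median log2 ratio of all genes was between -0.09 and 0.03 for each step between neighbouring conditions and -0.11 between day 5 and 20 °C, so small changes over the full course are to be read against that shift. As whole animals were sequenced, fewer cells of a type and less RNA per cell cannot be told apart. Markers of intestine, hypodermis, muscle, pharynx, neurons, and germline were all detected in every condition. The summed FPKM of 7 intestinal markers ranged from 2809.9 to 3367 at the first 4 conditions and was 1178.7 at day 5; 1 of the 7, the peptide transporter gene *pept-1*, was already 4.09-fold lower at day 1 than at 10 °C, with 3.51 FPKM against 14.3 FPKM. The sum is carried by the yolk genes *vit-2* and *vit-6*. Without them it was 108.5 to 127.9 FPKM at the first 4 conditions and 65.8 FPKM at day 5. Most of that smaller sum is *act-5*, with 71.8 FPKM at 10 °C and 93.4 FPKM at day 1. At day 1 against 10 °C, *elt-2* was 1.88-fold, *ges-1* 1.33-fold, and *ifb-2* 1.07-fold lower. The markers *act-5*, *vit-2*, and *vit-6* were higher in that comparison. Other tissues moved too: at day 5 the summed body wall muscle markers stood at 51.9% and the hypodermal markers at 66.8% of their 20 °C values, the hypodermal ones at 67.7% already at day 3, and the pharyngeal markers were at 206% at day 3. The hypodermal sum of 193.0 FPKM at day 5 is carried by *col-19*, with 190.8 FPKM. The intestinal sum at day 5 was 41.9% of that at 20 °C. The part of these shifts in the desaturase values was not tested.

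Among the delta-9 genes, *fat-5* (WBGene00001397) spans 17725004 to 17726818 of chromosome V (build WBcel235, forward strand), with 1 transcript of 3 exons and 1104 exonic bases. It stood at 9.88 (9.24 to 10.6) FPKM at 20 °C and 11.3 (10.7 to 12.0) at 10 °C, followed by 0.617 (0.478 to 0.798), 0.394 (0.283 to 0.547), and 0.320 (0.217 to 0.473) on days 1, 3, and 5. Behind them stood 867, 1048, 58, 35, and 25 reads in the same order, and the brackets give 95% counting limits. The limits of the 3 cold days do not overlap those of 20 °C or 10 °C. Relative to 10 °C, the level at day 1 was lower 18.4-fold, with counting limits of 14.1 to 24.4. On the log2 scale with the pseudocount the change was -3.995, and only 1 other gene had a larger fall. The gene was 14.8% higher at 10 °C than at 20 °C (limits 4.83% to 25.8%), so the fall was seen after the 10 °C step and not during it. At day 3 the level was 1.57-fold lower than at day 1, with counting limits of 1.01 to 2.46, and between day 5 and day 3 any further difference was not detectable at this depth. At day 5 *fat-5* stood 30.9-fold below 20 °C (20.8 to 47.95), and 27 genes had a larger fall in that comparison. Of its exonic bases, 2.54% overlap exons of *twk-42* on the opposite strand. The FPKM of *twk-42* was 0.726 at day 1 and 1.03 at 10 °C. How far its reads enter the low values of *fat-5* was not tested. The nearest gene past the filter upstream, *twk-33*, was also lower at day 1, with 1.27 FPKM against 2.64 FPKM at 10 °C.

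The major delta-9 gene before cooling was *fat-6* (WBGene00001398), on chromosome IV from 11913692 to 11915687 on the reverse strand. Its most read transcript, VZK822L.1a.1, has 5 exons and 1166 exonic bases. The FPKM of *fat-6* was 63.5 (61.8 to 65.1) at 20 °C and 53.3 (51.9 to 54.8) at 10 °C, followed by 25.3 (24.4 to 26.4), 18.4 (17.6 to 19.3), and 20.8 (19.9 to 21.8) on days 1, 3, and 5. At 10 °C the level differed by -15.9% from that at 20 °C, beyond counting error, and the largest step was that into 4 °C. At day 1 the level was 2.10-fold lower than at 10 °C (2.01 to 2.21), a log2 change of -1.07, close to the threshold. With changes centred on the median of all genes it was -0.98, which is no longer a 2-fold fall. At day 3 it was 1.38-fold lower than at day 1 (1.30 to 1.47). At day 5 it was 13.1% higher than at day 3 (5.76% to 21.0%), so the lowest value was that of day 3. Against 20 °C, the level at day 5 was 3.05-fold lower (2.89 to 3.22). The other transcripts, VZK822L.1b.1 and VZK822L.1c.1, are shorter and nested in the same exons, and the log2 change at day 1 against 10 °C was -1.11 for VZK822L.1c.1.

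The third delta-9 gene, *fat-7* (WBGene00001399), lies on chromosome V from 7151353 to 7153146 on the reverse strand, with 1 transcript of 5 exons and 1126 exonic bases. It stood at 17.8 (16.9 to 18.7) FPKM at 20 °C and 18.2 (17.3 to 19.03) at 10 °C, followed by 18.3 (17.5 to 19.2), 17.7 (16.9 to 18.6), and 16.2 (15.4 to 17.1) on days 1, 3, and 5. The highest level was 1.13 times the lowest, and the limits of the first 4 conditions all overlap one another. The ratio of day 1 over 10 °C was 1.01 with counting limits of 0.944 to 1.08, and that of 10 °C over 20 °C was 1.02 (0.954 to 1.09), so a 2-fold difference lies outside the counting limits of both. At day 5 the level differed by -8.61% from that at 20 °C (-15.1% to -1.58%). As *fat-6* and *fat-7* are paralogs, reads that fit both could have been counted in either, and how many did was not tested. The ratio of *fat-6* to *fat-7* was 3.57 at 20 °C and 2.94 at 10 °C, followed by 1.38, 1.04, and 1.28 on days 1, 3, and 5, so the values of the pair did not move together.

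Summed over the 3 genes, delta-9 mRNA was 91.1 FPKM at 20 °C and 82.8 at 10 °C, followed by 44.3, 36.5, and 37.4 on days 1, 3, and 5. Its make-up shifted as the sum became smaller. The share of *fat-5* was 10.8% at 20 °C and 13.7% at 10 °C, and 1.39%, 1.08%, and 0.857% on days 1, 3, and 5. The share of *fat-6* was 69.7% at 20 °C and 64.4% at 10 °C, and 57.2%, 50.4%, and 55.7% on the same days. The share of *fat-7* was 19.5% at 20 °C and 21.9% at 10 °C, and 41.4%, 48.6%, and 43.4% on the 3 cold days. At day 3 the separate counting limits of *fat-6* and *fat-7* overlap.

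**Figure D2:**
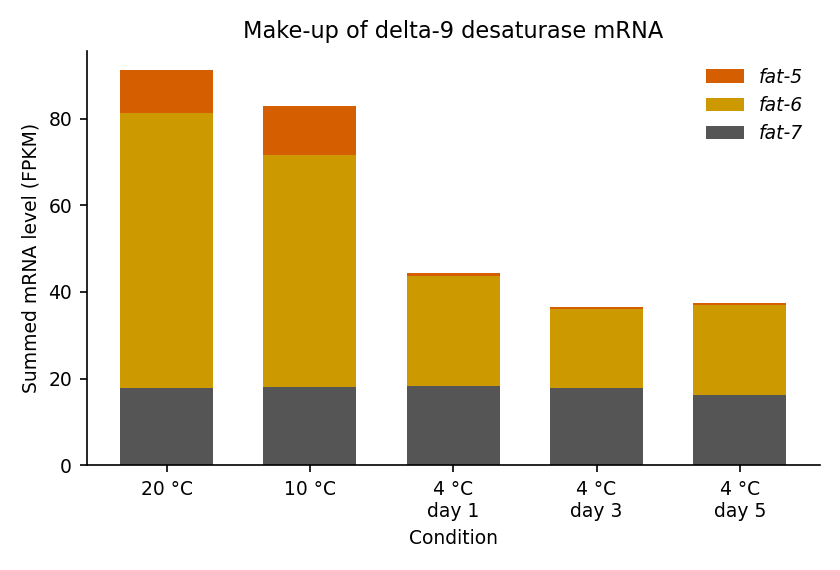
Summed FPKM of the delta-9 desaturase genes at each condition, stacked by gene (bars start at 0; single deposited values, no error bars). The total was 82.8 FPKM at 10 °C and 44.3 FPKM at 4 °C day 1; the *fat-7* layer keeps nearly the same height while the *fat-5* layer all but vanishes and the *fat-6* layer shrinks.

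In the polyunsaturated branch, *fat-2* (WBGene00001394), which opens the branch, had the highest value of the 7 genes in every condition, with limits that overlap those of *fat-1* at day 5. It lies on chromosome IV from 13323873 to 13326395 on the forward strand. It stood at 109.7 FPKM at 20 °C and 99.8 at 10 °C, followed by 116.4, 107.6, and 90.0 on days 1, 3, and 5. The highest value was that of day 1 and the lowest that of day 5. At day 1 it was 16.7% above 10 °C (13.7% to 19.7%), and at day 5 it differed by -16.3% from day 3 (-18.7% to -13.9%). Against 20 °C, the day 5 level of *fat-2* differed by -18.0%, with counting limits of -20.3% to -15.5%.

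Its neighbour *fat-1* (WBGene00001393), the omega-3 desaturase gene, spans 13315644 to 13318811 on the same strand, and 5061 bases separate its end from the start of *fat-2*, with no other gene past the filter in between. The FPKM of *fat-1*, which has 1 transcript of 1416 exonic bases, was 86.1 at 20 °C and 75.6 at 10 °C, followed by 86.3, 78.2, and 86.6 on days 1, 3, and 5. The values alternated between a higher and a lower level, and those of 20 °C, day 1, and day 5 have overlapping limits. At day 5, *fat-1* was 0.505% above 20 °C, a difference within the counting error (limits -2.38% to 3.47%).

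The genes of the front-end desaturases also sit side by side on chromosome IV, with 796 bases between *fat-4* (WBGene00001396, 9799429 to 9802226) and *fat-3* (WBGene00001395, 9803023 to 9806119), both on the forward strand. The FPKM of *fat-3*, for its most read transcript W08D2.4a.1, was 34.6 at 20 °C and 29.9 at 10 °C, followed by 37.1, 31.7, and 29.0 on days 1, 3, and 5. That of *fat-4*, for T13F2.1a.1, was 75.3 at 20 °C and 69.3 at 10 °C, followed by 83.6, 79.8, and 83.8 on days 1, 3, and 5. Both were lower at 10 °C than at 20 °C and highest, or within counting error of the highest, at day 1. They parted later: at day 5, *fat-3* differed from 20 °C by -16.02%, with counting limits of -19.9% to -12.0%. For *fat-4* the difference was 11.3%, with limits of 8.10% to 14.6%. No gene of this branch passed the 2-fold threshold in any of the 5 comparisons.

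The summed level of the delta-9 genes was 0.298 of that of the polyunsaturated branch at 20 °C and 0.302 at 10 °C. It was 0.137 at day 1, 0.123 at day 3, and 0.129 at day 5. The sum of the branch itself was 305.7 FPKM at 20 °C and 274.6 at 10 °C, followed by 323.4, 297.3, and 289.4 on days 1, 3, and 5, so the ratio moved mostly through its delta-9 side. From 10 °C to day 1, the median log2 change was -1.07 for the delta-9 genes and 0.25 for the polyunsaturated branch, a difference of -1.32, and the median of all genes was -0.09. The delta-9 median is the value of *fat-6*, since the 3 genes ranged from -3.995 to 0.01; the polyunsaturated genes ranged only from 0.19 to 0.31. In the step from 20 °C to 10 °C, the median was 0.03 for the delta-9 genes and -0.16 for the branch, and 0 of the 7 genes passed the threshold, against 2.17% of all genes (1.25% upward and 0.924% downward). From day 1 to day 3 the medians were -0.46 and -0.13 in the same order, with 0 of 7 past the threshold, against 6.17% of all genes (1.53% upward and 4.64% downward). From day 3 to day 5 they were -0.13 for the delta-9 genes and -0.03 for the branch, again with 0 of 7 against 5.03% of all genes (0.154% upward and 4.88% downward). In that last step 3 of the 7 intestinal markers fell at least 2-fold. The desaturase genes differed by 13.1% (*fat-6*), 10.7% (*fat-1*), 4.98% (*fat-4*), -8.47% (*fat-3*), -8.51% (*fat-7*), -16.3% (*fat-2*), and -18.7% (*fat-5*), the last within its counting error. Over the full course from 20 °C to day 5, the medians were -1.60 for the delta-9 genes and -0.12 for the branch, and 2 of 7 genes passed, both downward, against 16.5% of all genes downward, 5.35% upward, and 21.8% in either direction. No test of the difference between the branches was possible with 1 column per condition.

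**Figure D3:**
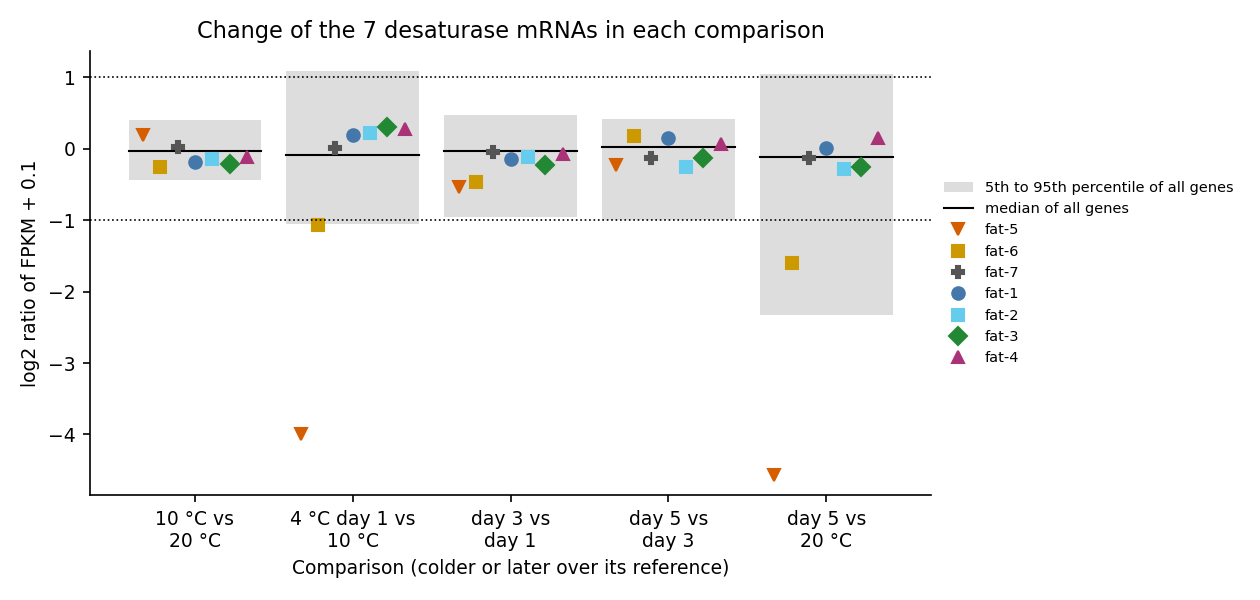
log2 ratio of FPKM + 0.1 for each desaturase gene (symbols) in 5 comparisons, with the 5th to 95th percentile range of all 10394 genes in grey, their median as a black line, and the 2-fold threshold dotted. *fat-5* leaves the grey range at 4 °C day 1 (-3.995) and at day 5 against 20 °C (-4.57), *fat-6* is just below its lower end at day 1 (-1.07 against a 5th percentile of -1.05), and the other 5 genes lie inside it in every comparison.

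Along the transcripts, the slightly higher level of *fat-2*, *fat-3*, and *fat-4* at day 1 than at 10 °C was uneven. This pattern was looked for after their values had been seen. *fat-1* has 1 transcript and was not examined in this way. For *fat-2*, *fat-3*, *fat-4*, and *fat-6*, the annotation holds short isoforms nested in the downstream exons of the most read transcript, so the reads of the shortest one could be separated from those on the rest of that transcript. These short isoforms cannot be told apart from the longer ones by such counts, and they are used here only as segments. In each of these genes the rest also holds some bases after the segment, so it is not purely upstream. For *fat-3*, the downstream segment of 234 bases had 812 reads at day 1 and 790 at 10 °C, and the remaining 1258 bases had 3899 and 2945 reads. The log2 change of the scaled reads was 0.02 in the segment and 0.38 in the rest. The difference of 0.37 exceeded the counting error, with limits of 0.21 to 0.52. In *fat-2* the change was 0.08 in the segment and 0.26 in the rest, a difference of 0.18 (0.09 to 0.28). In *fat-4* it was 0.16 in the segment and 0.29 in the rest, a difference of 0.13 (0.02 to 0.25). In *fat-6*, where both parts were lower, it was -1.12 in the segment and -0.97 in the rest, and the difference of 0.15 was within the counting error (limits -0.0044 to 0.30). Over 813 genes with a nested downstream isoform and at least 100 reads in each part, the median difference was 0.02, and it was above 0 in 54.6% of them. The spread over these genes was not examined, so how unusual the differences above are cannot be judged. The lower level of *fat-6* at day 1 than at 10 °C was thus seen in both parts of its transcript. In the same comparison, the higher level of *fat-3* exceeded 0.02 on the log2 scale only outside the segment. *fat-3* also differed the other way between 10 °C and 20 °C, with log2 changes of 0.05 in the segment and -0.27 in the rest, a difference of -0.32 (-0.48 to -0.16). At day 3 against day 1 the difference in *fat-3* was again negative, at -0.24 (-0.40 to -0.09). In *fat-2* and *fat-4* it was within the counting error there. The contrast of day 1 with 20 °C was not computed. At 20 °C, *fat-3* had 724 reads in the segment and 3375 in the rest, against 812 and 3899 at day 1.

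**Figure D4:**
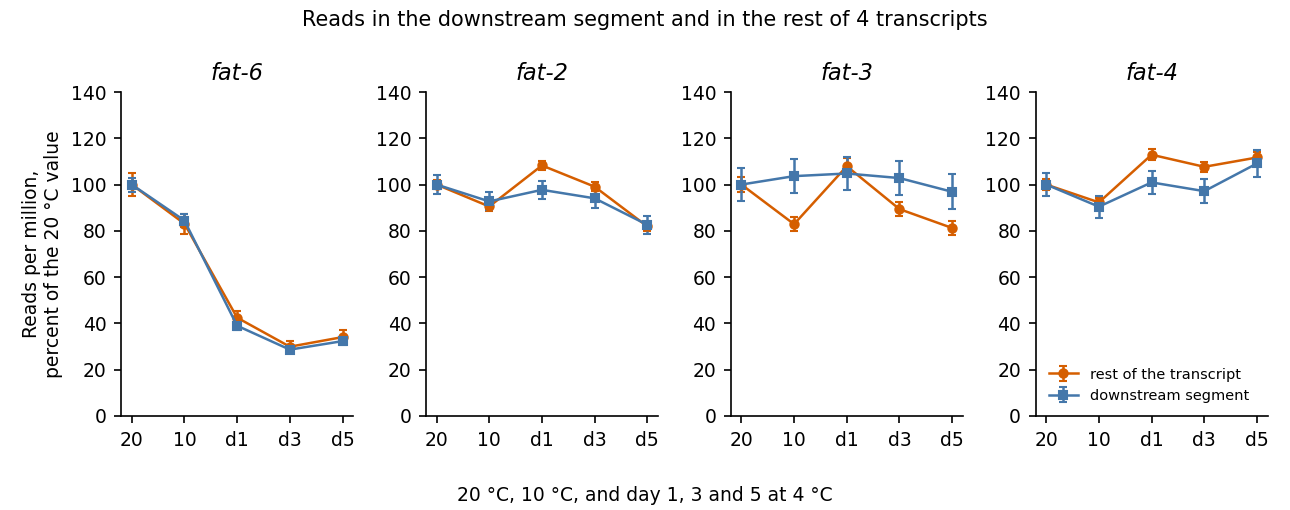
Depth-scaled reads in the downstream segment (shortest nested isoform) and in the rest of the most read transcript of *fat-6*, *fat-2*, *fat-3*, and *fat-4*, as a percent of the 20 °C value; bars are 95% counting limits. The parts of *fat-6* run together, whereas in *fat-3* the segment (724 reads at 20 °C, 790 at 10 °C, and 812 at day 1) stays nearly level and the rest is lower at 10 °C and highest at day 1.

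Genes that work with the desaturases were described from lists. Of 13 genes of fatty acid elongation and synthesis, 11 passed the filter, and 4 of them were at least 2-fold lower at day 1 than at 10 °C and 0 were higher, against 5.35% and 5.46% of all genes. The largest falls were those of *elo-6* and *elo-5*, elongases that supply monomethyl branched-chain fatty acids, and of *elo-2*, an elongase of palmitic acid and of polyunsaturated fatty acids. The FPKM of *elo-6* was 22.1 at day 1 and 188.4 at 10 °C, that of *elo-5* was 29.4 and 136.4, and that of *elo-2* was 30.1 and 88.6. At day 3 the 3 genes stood at 4.83, 9.71, and 4.94 FPKM, again more than 2-fold lower than at day 1. The other of the 4 was *elo-9*, with 1.18 FPKM at day 1 and 3.29 FPKM at 10 °C. The list had a median log2 change of -0.35 at day 1, against -0.09 for all genes, and at day 5 against 20 °C 6 of the 11 were at least 2-fold lower, against 16.5% of all genes. Cytochrome b5 and its reductase carry electrons to the desaturases. Of the 4 genes in that list 3 passed the filter, and none reached 2-fold at day 1, against 10.8% of all genes. *cytb-5.2* was at 42.5 FPKM at day 1 and 32.95 at 10 °C, *hpo-19* at 57.5 and 67.3, and *cytb-5.1* at 69.1 and 63.2. At day 5, *cytb-5.2* was 2-fold higher than at 20 °C, with 71.2 FPKM against 34.7 FPKM. In that comparison 5.35% of all genes were at least 2-fold higher.

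Of 12 regulators of desaturase expression, such as SBP-1, the worm SREBP, and NHR-49, an HNF4-like nuclear receptor, all passed the filter. At day 1 against 10 °C, 0 of them changed 2-fold on the scale with the pseudocount, against 10.8% of all genes. Without the pseudocount, *nhr-80* was 2.05-fold lower. Their median log2 change was -0.02. The largest differences were those of *nhr-80* (-0.95), a nuclear receptor gene needed for full delta-9 desaturase expression, of *nhr-64* (0.68), and of *nhr-66* (-0.43). The FPKM of *nhr-80* was 2.08 at 20 °C and 1.70 at 10 °C, followed by 0.831, 1.17, and 0.714 on days 1, 3, and 5. That of *sbp-1* was 4.399, 5.05, 5.05, 4.31, and 1.90 in the same order, with a 2-fold fall at day 5 against day 3. In that step 4.88% of all genes fell 2-fold. Against 20 °C, *nhr-80* and *sbp-1* were the members of the list that had fallen 2-fold at day 5. These are 2 of 12, against 16.5% of all genes, so the list did not stand out. Whether the levels of the regulators bear on those of the desaturases was not tested.

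The 6 genes listed for fatty acid oxidation in the NHR-49 programme had a median log2 change of -1.38 at day 1, and 1 of them, *icl-1*, rose, by 0.34. Of the 6, 0 were at least 2-fold higher and 3 at least 2-fold lower, against 5.46% and 5.35% of all genes. They were *hacd-1*, *cpt-5*, and *acdh-2*. The level of *hacd-1*, a hydroxyacyl-CoA dehydrogenase gene, was 1.06 FPKM at day 1 against 43.4 FPKM at 10 °C. That of *cpt-5* was 0.294 against 3.86 FPKM, and that of *acdh-2* was 2.40 against 12.3 FPKM. With the pseudocount of 0.1 FPKM, *hacd-1* was the 1 gene with a larger fall than *fat-5*. At day 5, 5 of the 6 were at least 2-fold lower than at 20 °C, against 16.5% of all genes. From 20 °C to 10 °C the list was mixed. The log2 changes were 4.08 (*ech-9*), 0.78 (*hacd-1*), 0.04 (*icl-1*), -0.06 (*acdh-2*), -0.53 (*cpt-5*), and -0.99 (*acs-2*), and that of *fat-5* was 0.20. The list was drawn up with the fall of *hacd-1* already known.

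**Figure D5:**
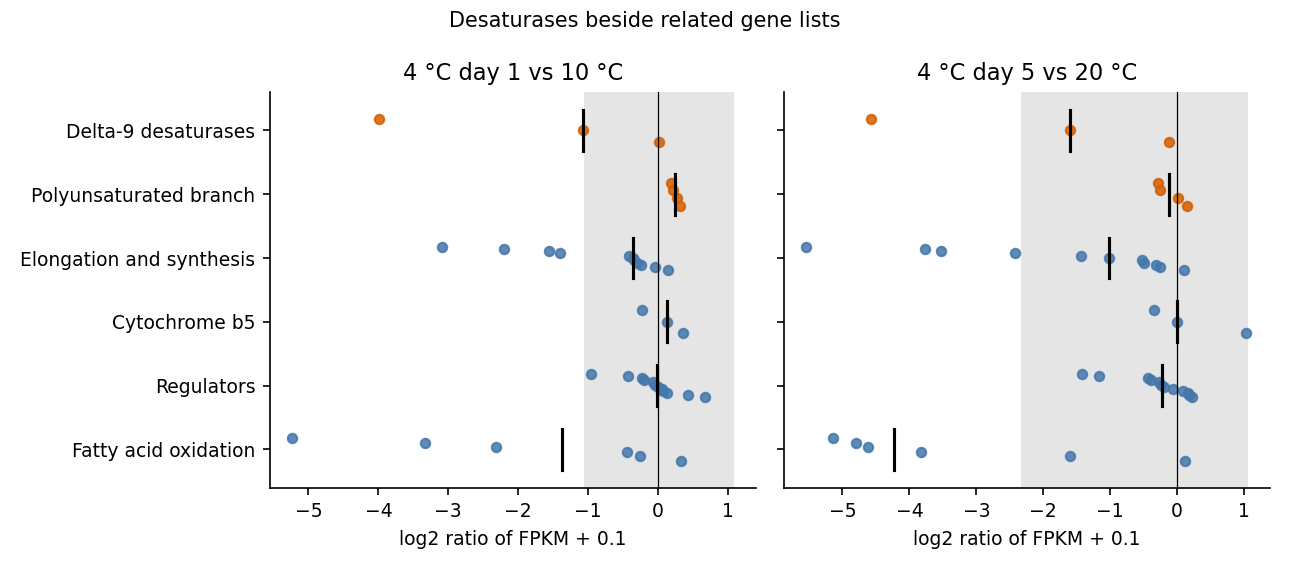
log2 ratio of FPKM + 0.1 for the delta-9 and polyunsaturated desaturase genes (orange) and for the genes of 4 related lists past the filter (blue), at 4 °C day 1 against 10 °C and at day 5 against 20 °C; black ticks are medians and grey the 5th to 95th percentile range of all genes. At day 1 the delta-9 median is -1.07, the polyunsaturated median 0.25, that of elongation and synthesis -0.35, and that of fatty acid oxidation -1.38.

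The profiles most like those of the 2 desaturase genes that changed 2-fold were found by the root mean square difference of their log2 values over the 5 conditions, each centred on its own mean. Those nearest to *fat-5* were F22F7.8 (0.16), K01D12.9 (0.17), and *ppat-1* (0.25). F22F7.8 had 9.98 FPKM at 20 °C and 9.26 at 10 °C, followed by 0.571, 0.447, and 0.356 on days 1, 3, and 5. K01D12.9 had 4 reads at day 3 and 2 at day 5, the smaller count under the floor of 3 reads. Those nearest to *fat-6* were C03H5.5 (0.06), *thn-2* (0.08), and Y39C12A.9 (0.08). Of these, *thn-2* was read most deeply, with 38.5 FPKM at 20 °C and 29.3 at 10 °C, followed by 14.7, 11.6, and 13.1 on days 1, 3, and 5, including the same slight return at day 5. Among the other desaturases, *fat-6* was the nearest to *fat-5*, at a difference of 1.43, and ranked 642 among all genes. With 5 values per gene, such likeness is a description of these libraries.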

How the data were processed

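Total RNA from 2 biological replicates of whole N2 animals per condition was made into ScriptSeq v2 libraries. The authors ran the ORFik pipeline with fastp 0.23.4, STAR 2.7.11b on WBcel235, and DESeq2 1.42.1, and deposited FPKM values per transcript with 1 column per condition. Whether replicates were added or chosen, the annotation release, and strand use are not given in the sources used here. A column for 25 °C (1 column) matches no sample and was not used. Multiplying FPKM by exon length (Ensembl 115) gave whole reads for 100% of values (within 0.01 reads), from which 95% Wilson limits and exact conditional limits of ratios were computed with Python 3.11.15, numpy 2.4.6, pandas 2.3.3, and scipy 1.17.1, and figures with matplotlib 3.10.9. These cover counting error only. Changes are log2 ratios of FPKM + 0.1 for genes with at least 1 FPKM in any condition, called at 2-fold. Named genes are the 7 desaturases, up to 3 genes per list with the largest change at day 1 against 10 °C and any gene needed to explain a small count, and the 3 nearest profiles of each desaturase gene that changed. Members and lists were chosen with earlier results of these data known. Scripts were tested on simulated data. Alternatives were the pseudocount, the filter, centring, the choice of transcript, and the threshold. Sequences and promoter motifs were not analysed here.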

Additional observations from a re-analysis of the deposited data

How the results depend on the processing

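No paired analysis was possible because each condition has 1 column without a replicate number, and for the same reason no replicate could be left out. Of 245 log2 changes of single desaturase genes recomputed under other settings, 220 moved by less than their counting limits and 25 moved further. Of those past 2-fold, 0 changed sign. That count says little, because a pseudocount cannot reverse a sign and the centring shifts were far smaller than 2-fold. Part of the 220 was fixed by construction and says nothing about robustness. A filter cannot move the change of a single gene, and the choice of transcript cannot move *fat-1*, *fat-5*, or *fat-7*, which have 1 transcript each. The number of desaturase genes past 2-fold at day 1 against 10 °C was 1 with changes centred on the median of all genes, where *fat-6* no longer passed. With a pseudocount of 1 FPKM, the log2 change of *fat-5* was -2.93 at day 1 against 10 °C and -3.04 at day 5 against 20 °C. The difference between the branches at day 3 against day 1 was -0.088 with a pseudocount of 1 FPKM, and at day 5 against 20 °C it was -1.61 with the transcript of highest mean FPKM. For 10 °C against 20 °C, day 1 against 10 °C, day 3 against day 1, day 5 against day 3, and day 5 against 20 °C, the number of all genes changed was 226, 1123, 641, 523, and 2271. It was 67, 573, 315, 157, and 1396 with a pseudocount of 1 FPKM, 101, 513, 350, 240, and 987 with a filter at 5 FPKM, and 621, 2193, 1501, 1591, and 3805 at a 1.5-fold threshold. Without a filter it was 3488 at day 5 against 20 °C. The cause was not tested beyond what each setting does by construction. Depth limits *fat-5* most, with 58 reads or fewer at 4 °C.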
